A study of Mus musculus with 4 samples.

Results

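The genes of the major histocompatibility complex (MHC) and of the antigen presentation pathway were followed in brown adipose tissue (BAT) of mice with and without a conditional deletion of Sox4, which encodes an HMG-box transcription factor. The members were every row whose gene symbol starts with H2-, the prefix of the mouse MHC, and 10 genes chosen by name for their part in loading or controlling MHC molecules. This gave 52 genes of the 55387 rows in each library, 42 with an H2- symbol and 10 named one by one, after 3 H2- symbols marked as pseudogenes had been dropped. In 29 of the 52, the averaged level was above 1 FPKM (sequenced fragments per kilobase of transcript, set relative to all mapped fragments of that library) in at least one genotype, and these 29 were tested together with all other genes above that level, 12877 in all.

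The 4 libraries came from 4 male mice aged 15 weeks on a C57BL/6 background, each mouse giving 1 library. The 2 control mice were Sox4f/f, named by their loxP-flanked Sox4 alleles alone, and their genotype label reads WT. The 2 others, littermates labelled Sox4-MKO, carried the same floxed alleles and Myf5-Cre, which is active in the lineage that gives rise to both brown adipocytes and skeletal muscle, so the deletion is not restricted to fat. Immune cells are not known as part of that lineage. No treatment was given and the mice were kept at ordinary room temperature. Sox4 itself was at 1.98 and 1.06 FPKM in Sox4f/f mice 1 and 2 and at 0.981 and 3.06 FPKM in mice 1 and 2 labelled Sox4-MKO. It was thus not lower in both of the latter (log2 fold change 0.20 ± 0.43, SE, limma adjusted p = 0.843), and the genotype names below are the labels of the libraries.

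The depth estimated from the spacing of low FPKM values was 12200000 to 16600000 fragments per library. Of 8 brown adipocyte markers, Fabp4, the fatty acid carrier of adipocytes, was the highest, with 5801 and 6334 FPKM in Sox4f/f mice, compared with 5416 and 7518 FPKM in libraries labelled Sox4-MKO, and Elovl3 was the lowest, between 1.31 and 3.24 FPKM. Their median log2 fold change was -0.55, with 7 of the 8 lower and 3 of them, Ucp1, Cidea and Ppara, at an unadjusted limma p under 0.05 (37.5%, against 8.28% of all genes tested). Ucp1, the uncoupling protein of thermogenesis, had 1935 and 1814 FPKM in Sox4f/f mice, compared with 733 and 1105 FPKM in libraries labelled Sox4-MKO. The part of this difference in those of the MHC genes was not tested. Skeletal muscle markers differed as well. The summed level of 8 of them was 12130 FPKM in mouse 1 labelled Sox4-MKO and 2158 in mouse 2 with this label, against 167 and 621 in Sox4f/f. All 8 were higher, with a median log2 fold change of 3.95, and 6 had an unadjusted limma p under 0.05 (75%, against 7.95% of all genes tested). The part of muscle content in the differences of the MHC genes was not tested. The labels call the sample brown adipocytes, but these whole-tissue libraries also held transcripts of macrophages, other leukocytes and endothelial cells.

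MHC class I molecules consist of a heavy chain paired with beta-2-microglobulin and display peptides from inside the cell to CD8 T cells on nearly every nucleated cell. Peptides are carried into the endoplasmic reticulum by the transporter TAP and loaded with the help of tapasin, calreticulin and the disulphide isomerase encoded by Pdia3. Class II molecules are displayed by dendritic cells, macrophages and B cells, show peptides from endocytosed protein to CD4 T cells, and depend on the invariant chain Cd74 and on H2-DM for loading. NLRC5 is the transactivator of class I genes and CIITA that of class II genes. In adipose tissue, resident macrophages are a main class II-bearing population, and adipocytes themselves carry class I.

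Of the 29 genes tested, 20 had a higher mean log2 level in libraries labelled Sox4-MKO and 9 a lower one, and the median log2 fold change was 0.19, against -0.05 for all 12877 genes. A gene was called when its unadjusted limma p was under 0.05. The study also used a p under 0.05 with the same FPKM limit, and the test and adjustment behind its p are not given in the sources used here. On this rule 4 members were higher in libraries labelled Sox4-MKO, namely H2-Q10, B2m, H2-Aa and H2-DMa, which is 13.8% of the members tested, where 7.95% of all genes tested were called higher. The members called higher changed with the library left out. Without mouse 1 labelled Sox4-MKO, B2m and H2-DMa lost their calls, and Calr, Pdia3 and Cd74 were called beside H2-Q10 and H2-Aa. Without any other single library, H2-Q10 was the only member called higher. With all 4 libraries, H2-Ke6 was called lower, 3.45% of the members tested against a background of 8.28%. No gene in the whole table had an adjusted p under 0.05 (0%, smallest limma adjusted p 0.191), while 1024 genes were higher and 1066 lower at an unadjusted p under 0.05.

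The separation of the groups was also counted without a model. Both libraries labelled Sox4-MKO lay above both Sox4f/f libraries in 15 of the 29 genes (51.7%, against 21.7% of all genes tested), and both lay below in 3 (10.3%, against 29.6%). These counts cover only the members above the FPKM limit, and the genes are not independent of each other. H2-T10, with means of 0.906 FPKM in Sox4f/f and 1.52 FPKM in libraries labelled Sox4-MKO, passed this limit only through the latter. It could thus enter only with a higher mean. In bulk tissue, a larger number of cells of one type and more RNA per cell cannot be told apart.

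**Figure D1:**
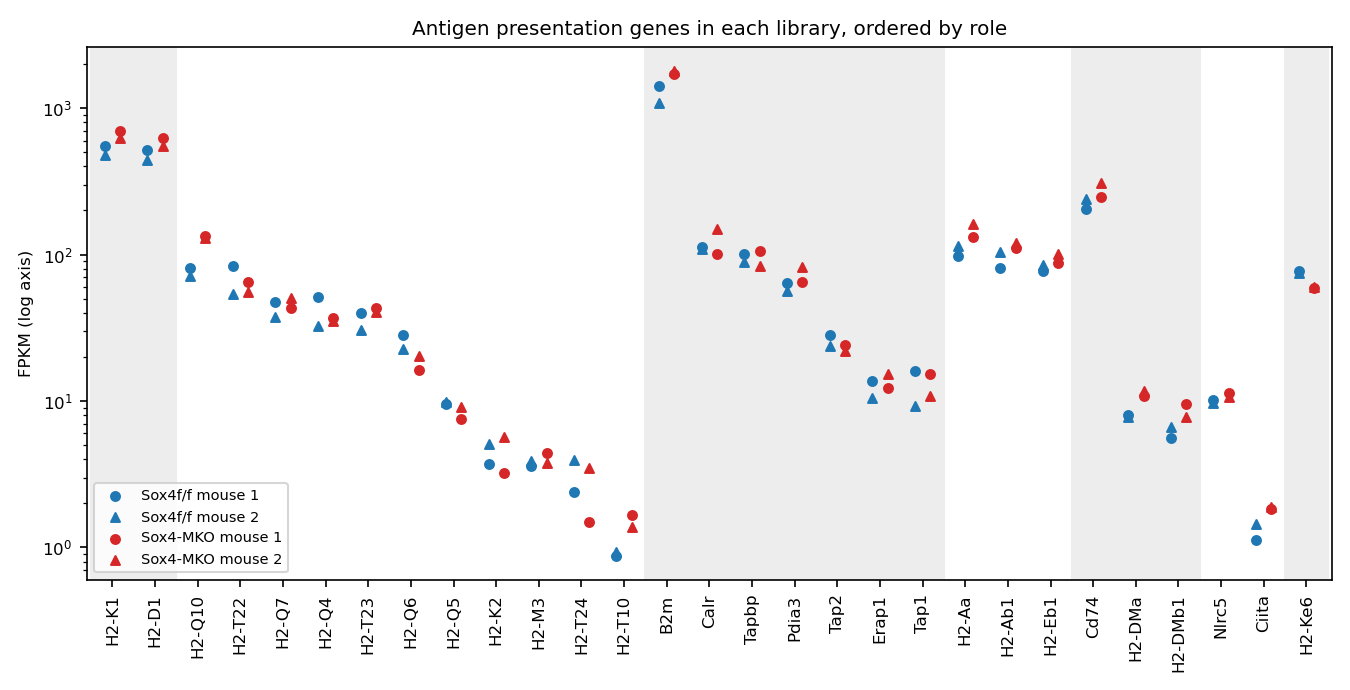
FPKM (vertical log axis) of the 29 genes tested in each of the 4 libraries, 1 point per library, ordered by role and within a role by level, with grey and white bands separating the roles in the order class Ia, class Ib, light chain and loading, class II chains, class II peptide exchange, transactivators and H2-Ke6. B2m, H2-K1 and H2-D1 lie at the top, and the red points of H2-Q10 lie apart from its blue points.

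The classical class I heavy chains, H2-K1 and H2-D1, had the highest levels of all heavy chains in every library. Their promoters carry an array in which an NF-kappaB element (enhancer A) lies upstream of CCAATCAG. This stretch holds the letters of a Y box, a binding sequence of NF-Y, in reverse orientation. Whether it is the element that serves as the Y box of class I genes was not tested. The array is shown for these classical genes beside H2-Q10 and H2-Q6, the class Ib genes that differed most between genotypes in each direction. The stretches are 200 bases of RefSeq promoter sequence (GRCm38.p6), given 5′ to 3′ on the gene's strand. They end just before the RefSeq start, or a few bases past 1 of its 2 RefSeq starts for H2-K1, and the RefSeq start of H2-D1 lies inside the longer GENCODE gene. Capitals mark GGGATTCCC, a kappaB site, and CCAATCAG, the reverse complement of the Y box CTGATTGG.
H2-K1 (chr17:34000324-34000523, minus strand): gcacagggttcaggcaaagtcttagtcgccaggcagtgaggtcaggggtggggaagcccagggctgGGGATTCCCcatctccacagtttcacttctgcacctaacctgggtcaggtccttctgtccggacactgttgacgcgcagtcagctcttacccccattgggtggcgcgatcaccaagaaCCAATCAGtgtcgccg
H2-D1 (chr17:35262894-35263093, plus strand): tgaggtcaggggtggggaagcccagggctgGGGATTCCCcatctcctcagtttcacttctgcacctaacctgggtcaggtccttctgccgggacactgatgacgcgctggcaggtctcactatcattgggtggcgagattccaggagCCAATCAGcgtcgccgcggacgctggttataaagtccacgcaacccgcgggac
H2-Q10 (chr17:35469889-35470088, plus strand): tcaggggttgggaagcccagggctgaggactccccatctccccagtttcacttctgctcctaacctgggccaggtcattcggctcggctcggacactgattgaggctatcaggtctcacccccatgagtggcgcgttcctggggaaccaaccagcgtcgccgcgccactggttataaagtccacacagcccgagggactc
H2-Q6 (chr17:35424650-35424849, plus strand): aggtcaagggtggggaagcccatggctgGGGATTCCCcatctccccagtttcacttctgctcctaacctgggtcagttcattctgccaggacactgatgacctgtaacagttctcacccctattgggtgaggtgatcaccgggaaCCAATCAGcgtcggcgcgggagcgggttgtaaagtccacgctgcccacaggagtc

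These stretches were alike, with 87.3% of 291 aligned bases identical between the 300-base promoter windows of H2-D1 and H2-Q10, and 81.5% of 297 between those of H2-D1 and H2-Q6. H2-K1, H2-D1 and H2-Q6 held both motifs exactly, while H2-Q10 held neither. The lack was not particular to H2-Q10, since the windows of H2-Q4, H2-T22 and H2-M3 also held neither. Their log2 fold changes were -0.18, -0.15 and 0.09. At the place in H2-Q10 that aligned with the kappaB site of H2-D1, the substitutions were G1A and T5C, counted from 1 at the 5′ end of GGGATTCCC, with the H2-D1 base first. At the place aligned with the CCAATCAG of H2-D1 the substitution was T5C, counted from 1 at the 5′ end of these letters. Both motifs were searched on both strands as exact letters. GGGATTCCC was found in 0.353% of 32851 RefSeq promoter windows and in 4 of the 20 tested members with a window used here, H2-K1, H2-D1, H2-Q6 and H2-Q7. The letters of the Y box, on either strand, were found in 4.1% of all windows and in 8 of these 20 members. These were the same 4 class I genes, H2-T23, Tap1, H2-Aa and H2-Eb1. These are matches of letters and not measured binding.

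H2-K1 was at 555 and 476 FPKM in Sox4f/f mice 1 and 2 and at 697 and 628 FPKM in mice 1 and 2 labelled Sox4-MKO. H2-D1, its partner at the other end of the complex, was at 515 and 441 against 627 and 550 FPKM. For both genes every library labelled Sox4-MKO was above every Sox4f/f library, but neither difference passed the test, H2-K1 with an unadjusted p just above 0.05. The log2 fold changes were 0.37 ± 0.14 for H2-K1 (SE, limma adjusted p = 0.311) and 0.30 ± 0.14 for H2-D1 (limma adjusted p = 0.378). The 2 genes moved from library to library together: the ratio of H2-K1 to H2-D1 was 1.08 in both Sox4f/f libraries and 1.11 and 1.14 in the others. Together they made up 75.3% to 78.8% of the summed class I heavy chain FPKM in each library.

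H2-Q10, a nonclassical class Ib gene known for a secreted product made mainly by the liver, showed the greatest difference among the 29 genes. It was at 80.8 and 70.9 FPKM in Sox4f/f mice 1 and 2 and at 134 and 129 FPKM in mice 1 and 2 labelled Sox4-MKO. The gap between the groups was far wider than the spread within either. The ratio of the means was 1.74 and the log2 fold change 0.79 ± 0.12 (SE, 95% interval 0.47 to 1.11, limma adjusted p = 0.196). The unadjusted p stayed under 0.05 in each of the 13 alternative settings tried, with log2 fold changes from 0.70 to 0.88. H2-Q10 also differed relative to the classical genes. Its ratio to H2-D1 was 0.157 and 0.161 in Sox4f/f and 0.214 and 0.235 in libraries labelled Sox4-MKO, and its ratio to H2-K1 was 0.146 and 0.149 against 0.192 and 0.206. With 2 libraries against 2, the exact two-sided permutation p of each ratio was 0.333, the smallest this design allows. Class I transcripts resemble each other. Of the 50-base words in H2-Q10 transcripts, 19.0% also occurred in another gene, 14.0% in H2-Q7, so part of the H2-Q10 signal rests on how the reads were divided. For H2-D1 and H2-K1 such words made up 12.8% and 9.63%, so the ratios to these genes share this uncertainty.

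H2-Q6, one of the Qa-2 family of class Ib genes, pointed the other way. It was at 28.1 and 22.7 FPKM in Sox4f/f mice, compared with 16.3 and 20.4 FPKM in libraries labelled Sox4-MKO, with no overlap between groups and a log2 fold change of -0.45 ± 0.18 that did not pass the test (limma adjusted p = 0.329). H2-Q7, the closely similar gene beside it and also a source of Qa-2, was at 47.7 and 37.5 against 43.1 and 50.6 FPKM, and its groups overlapped (0.14 ± 0.17, limma adjusted p = 0.710). The ratio of H2-Q6 to H2-Q7 was 0.588 and 0.604 in Sox4f/f and 0.378 and 0.403 in the libraries labelled Sox4-MKO (exact two-sided permutation p = 0.333, the smallest possible). Of the 50-base words of H2-Q6, 32.0% occurred in other genes, and 26.4% of those of H2-Q7, so the division of reads between these genes is uncertain.

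The other Q-region genes tested were not called. H2-Q4 was at 51.1 and 32.7 FPKM against 36.6 and 35.3, with Sox4f/f mouse 1 high and the groups overlapping (log2 fold change -0.18 ± 0.24, 0.13 without that mouse and -0.50 and called lower without Sox4f/f mouse 2, limma adjusted p = 0.723). H2-Q5, listed as a transcribed pseudogene in RefSeq, was at 9.56 and 9.92 against 7.52 and 9.14 FPKM, lower in both libraries labelled Sox4-MKO without passing the test (-0.21 ± 0.16, limma adjusted p = 0.543). Words shared with other genes made up 36.5% of H2-Q5 transcripts and 21.8% of H2-Q4 transcripts, so their levels are uncertain as well.

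Among the T-region genes, H2-T23 encodes Qa-1, which presents signal peptides of other class I chains to inhibitory receptors of natural killer cells. It was at 39.6 and 30.6 FPKM in Sox4f/f mice, compared with 42.9 and 40.4 FPKM in libraries labelled Sox4-MKO, above in both but not past the test (0.25 ± 0.17, limma adjusted p = 0.492), and its log2 fold change was 0.07 without Sox4f/f mouse 2. H2-T22, a ligand of some gamma-delta T cells, was at 83.4 and 53.8 against 64.9 and 55.8 FPKM, and its groups overlapped, with a log2 fold change of -0.15 that was 0.16 without Sox4f/f mouse 1. Its near-identical neighbour H2-T10, listed as a transcribed pseudogene, was far lower, at 0.880 and 0.932 against 1.66 and 1.38 FPKM, and did not overlap (0.40 ± 0.23, limma adjusted p = 0.437). About as many words were shared in each of them with the other, 31.3% in H2-T22 and 31.7% in H2-T10, so the small H2-T10 level is uncertain. In H2-T23, 13.6% of the words also occurred in another gene. H2-T24 was at 2.37 and 3.93 against 1.49 and 3.49 FPKM and overlapped, with a log2 fold change of -0.29 that was 0.14 without mouse 1 labelled Sox4-MKO.

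Of the remaining class Ib genes tested, H2-M3, which presents formylated bacterial peptides, was at 3.62 and 3.90 against 4.40 and 3.78 FPKM. H2-K2, listed as a pseudogene, was at 3.73 and 5.07 against 3.24 and 5.70 FPKM. Neither separated the groups. Over all 11 class Ib genes tested, 5 were higher and 6 lower with a median log2 fold change of -0.01. The summed level of the class Ib genes was 352 and 273 FPKM in Sox4f/f and 357 and 357 FPKM in libraries labelled Sox4-MKO, and that of the 2 classical genes 1070 and 917 against 1325 and 1178 FPKM.

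**Figure D2:**
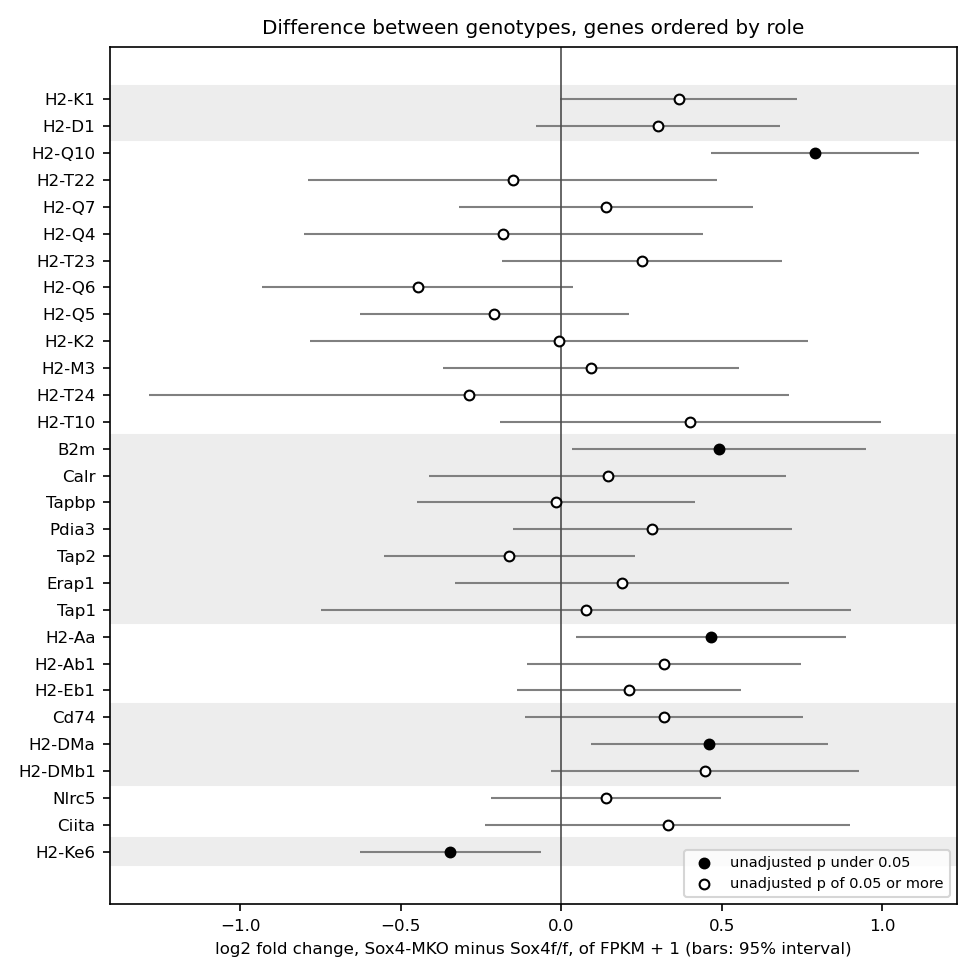
log2 fold change (labelled Sox4-MKO minus Sox4f/f, on the scale of FPKM + 1) of the 29 genes tested, with 95% intervals from the limma fit. Filled points, those with an unadjusted p under 0.05, are H2-Q10, B2m, H2-Aa and H2-DMa to the right of 0 and H2-Ke6 to the left, while all 6 class II genes lie to the right of 0.

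B2m encodes beta-2-microglobulin, the light chain that all class I heavy chains need to reach the surface, and was the most abundant member. It was at 1419 and 1086 FPKM in Sox4f/f mice, compared with 1704 and 1786 FPKM in libraries labelled Sox4-MKO. Sox4f/f mouse 2 was the low library, and the groups did not overlap. The log2 fold change was 0.49 ± 0.17 (SE, limma adjusted p = 0.286). This call depended on the sample, since the unadjusted p was above 0.05 in each fit that left out 1 library, and the log2 fold change was 0.30 without Sox4f/f mouse 2. B2m per summed class I heavy chain was 0.998 and 0.912 in Sox4f/f and 1.01 and 1.16 in the other libraries (exact two-sided permutation p = 0.333). Quantile normalization and a common median gave B2m log2 fold changes of 0.77 and 0.47.

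None of the peptide loading genes was called. Tap1 and Tap2 encode the subunits of the peptide transporter. Tap1 was at 16.0 and 9.17 FPKM against 15.2 and 10.9, with mouse 1 higher than mouse 2 in both genotypes. Tap2 was at 28.3 and 23.6 against 24.0 and 22.0 FPKM (log2 fold change -0.16 ± 0.15, limma adjusted p = 0.608). Tapasin, the bridge between TAP and the empty class I molecule, is encoded by Tapbp, which was at 101 and 88.4 against 105 and 83.1 FPKM. The groups of all 3 genes overlapped, and the log2 fold changes of Tap1 (0.08) and Tapbp (-0.02) turned with the library left out, to -0.29 for Tap1 without Sox4f/f mouse 2 and to 0.15 for Tapbp without mouse 2 labelled Sox4-MKO.

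Erap1, the aminopeptidase that trims peptides to length, was at 13.6 and 10.4 against 12.3 and 15.3 FPKM. Calr, the chaperone calreticulin, was at 113 and 109 against 101 and 149 FPKM, with mouse 2 labelled Sox4-MKO alone above the others, and its log2 fold change was -0.13 without that mouse. Pdia3 was at 63.8 and 56.5 against 65.0 and 82.6 FPKM, above in both but barely so in mouse 1 labelled Sox4-MKO (0.28 ± 0.16, limma adjusted p = 0.448). Without that library the unadjusted limma p was 0.0247 for Calr and 0.0417 for Pdia3, so both were called without that library and neither with it. Without mouse 2 labelled Sox4-MKO the Pdia3 log2 fold change was 0.11. Of the 7 light chain and loading genes, 5 were higher and 2 lower, and B2m was the only one called.

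All 6 class II genes tested were higher in both libraries labelled Sox4-MKO than in both Sox4f/f libraries. This separation was found in 21.7% of all genes tested. Their median log2 fold change was 0.38, and 2 of the 6 were called higher (33.3%, against 7.95% of all genes tested). Class II promoters share a different array, with an X box bound by the RFX complex and by CREB (X1 and X2) upstream of a Y box. It is shown for H2-Aa, which was called, and H2-Eb1, which was not. Both stretches are the 110 bases before the RefSeq start (GRCm38.p6), and capitals mark TAGCAAC (a core of X1), TGACGTCA (a cyclic AMP response element, as in X2) and the Y box CTGATTGG.
H2-Aa (chr17:34287824-34287933, minus strand): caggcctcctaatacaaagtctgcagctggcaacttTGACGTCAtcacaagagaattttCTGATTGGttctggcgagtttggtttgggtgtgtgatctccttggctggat
H2-Eb1 (chr17:34305757-34305866, plus strand): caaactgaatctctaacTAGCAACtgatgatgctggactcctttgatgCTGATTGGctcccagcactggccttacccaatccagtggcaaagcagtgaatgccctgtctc

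Each promoter held the Y box and 1 of the other motifs, TGACGTCA in H2-Aa and TAGCAAC in H2-Eb1. TGACGTCA occurred in 1.79% of all 32851 promoter windows and TAGCAAC in 3.66%, on either strand. H2-Aa and H2-Eb1 were the only members with these exact letters among the 20 tested members searched. Cd74, which lies on chromosome 18, was left out of the member search for all motifs.

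H2-Aa, the alpha chain of the I-A molecule, was at 97.6 and 115 FPKM in Sox4f/f mice 1 and 2 and at 132 and 162 FPKM in mice 1 and 2 labelled Sox4-MKO. Mouse 2 was higher than mouse 1 in both genotypes, and the groups did not overlap. The log2 fold change was 0.47 ± 0.16 (SE, limma adjusted p = 0.275). The unadjusted limma p rose to 0.187 without Sox4f/f mouse 1, to 0.0667 without Sox4f/f mouse 2 and to 0.119 without mouse 2 labelled Sox4-MKO. Its partner beta chain H2-Ab1 was at 81.3 and 104 against 110 and 120 FPKM (0.32 ± 0.16, limma adjusted p = 0.40), and its log2 fold change ran from 0.14 without Sox4f/f mouse 1 to 0.50 without Sox4f/f mouse 2. The ratio of H2-Aa to H2-Ab1 was 1.20 and 1.10 in Sox4f/f and 1.20 and 1.35 in the other libraries. Sox4f/f mouse 1 and mouse 1 labelled Sox4-MKO, which are different animals, thus had nearly the same ratio.

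H2-Eb1, the beta chain of I-E, was at 77.1 and 85.5 against 87.9 and 101 FPKM, the smallest of the class II differences (0.21 ± 0.13, limma adjusted p = 0.478), and 0.11 without mouse 2 labelled Sox4-MKO. Its alpha chain gene, H2-Ea, was listed at 0 in all 4 libraries and is known to be silent in C57BL/6 mice. Cd74, the invariant chain that fills the class II groove until peptide loading, was at 205 and 240 against 249 and 309 FPKM (0.32 ± 0.16, limma adjusted p = 0.402). Its ratio to the summed class II chains stayed between 0.753 and 0.807 in the 4 libraries, so Cd74 kept close to the same proportion to the chains it binds. Without mouse 1 labelled Sox4-MKO the Cd74 log2 fold change was 0.47 with an unadjusted limma p of 0.0465, while it was 0.17 without mouse 2 with this label and 0.21 without Sox4f/f mouse 1.

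H2-DMa and H2-DMb1 encode the chains of H2-DM, which exchanges the invariant chain remnant for peptide. H2-DMa was at 8.04 and 7.72 FPKM in Sox4f/f mice, compared with 10.8 and 11.7 FPKM in libraries labelled Sox4-MKO. Its groups lay far apart compared with their spread, and the log2 fold change was 0.46 ± 0.14 (SE, limma adjusted p = 0.249). Leaving out any single library kept its log2 fold change between 0.41 and 0.52 and brought the unadjusted limma p to between 0.0543 and 0.115. H2-DMb1 was at 5.55 and 6.62 against 9.59 and 7.78 FPKM, also without overlap, and did not pass the test (0.45 ± 0.18, limma adjusted p = 0.327). It shares 22.7% of its 50-base words with H2-DMb2, which was not tested and lay between 0.456 and 1.03 FPKM.

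Neither transactivator was called, though the groups did not overlap for either. Ciita was at 1.12 and 1.44 FPKM in Sox4f/f mice, compared with 1.83 and 1.90 FPKM in libraries labelled Sox4-MKO (0.33 ± 0.22, limma adjusted p = 0.49). Nlrc5 was at 10.1 and 9.75 against 11.4 and 10.6 FPKM (0.14 ± 0.14, limma adjusted p = 0.637).

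H2-Ke6 carries an H2 symbol because of its place in the complex, but encodes a hydroxysteroid dehydrogenase (Hsd17b8) with no part in antigen presentation. Sox4f/f mice 1 and 2 had 76.95 and 74.95 FPKM and those labelled Sox4-MKO 59.3 and 59.8 FPKM. The libraries within each group were almost equal, and the log2 fold change was -0.35 ± 0.11 (SE, limma adjusted p = 0.254). It shares 70.5% of its 50-base words with the overlapping readthrough gene Gm20427, so its level is uncertain. Without Sox4f/f mouse 1 or mouse 2 the unadjusted limma p was 0.113 and 0.0923.

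Of the 23 members below the FPKM limit, 13 were listed at 0 in all 4 libraries: the 6 H2-M10 genes, which are known from the vomeronasal organ, with H2-M1, H2-Q2 and the genes that RefSeq lists as pseudogenes, H2-Bl, H2-Q3, H2-Ea, H2-Pa and H2-Pb. The other 10 had a value above 0 in at least 1 library, between 0.0298 and 1.18 FPKM. They included H2-Oa and H2-Ob, the chains of H2-DO that restrains H2-DM in B cells, at 0.367 and 0.0873 against 0.293 and 0.544 FPKM and at 1.10 and 0.704 against 0.491 and 0.748 FPKM. The rest were H2-DMb2, H2-Eb2, H2-M2, H2-M5, H2-M9, H2-M11, H2-Q1 and H2-T3.

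By position, 44 of the 51 members matched in GENCODE M21 and 22 of the 29 tested lie on chromosome 17. H2-Ea had no match there and was not placed. In GENCODE M21 (GRCm38), H2-K1 spans chr17:33996017-34000347, H2-D1 chr17:35262730-35267499, H2-Q10 chr17:35470089-35474563 and H2-Aa chr17:34282744-34287823. B2m lies elsewhere, at chr2:122147686-122153083. The difference between genotypes did not run evenly along the complex. The tested class II genes on chromosome 17, H2-Aa, H2-Ab1, H2-Eb1, H2-DMa and H2-DMb1, lie within 306 kb of H2-K1 and were all higher, while the groups overlapped for Tap1 and Tap2, which lie among them, and H2-Ke6 was lower. In the Q region, H2-Q6, H2-Q7 and H2-Q10 start 1425, 1439 and 1470 kb from H2-K1 and had log2 fold changes of -0.45, 0.14 and 0.79.

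**Figure D3:**
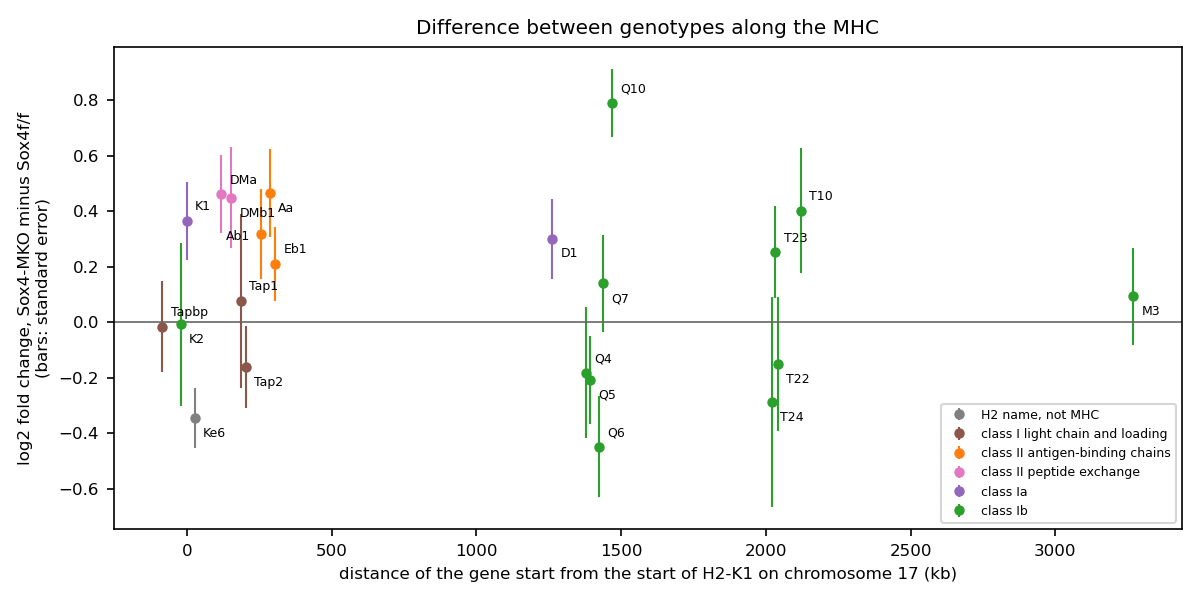
log2 fold change with its standard error (vertical axis, labelled Sox4-MKO minus Sox4f/f, on the scale of FPKM + 1) of the 22 tested members on chromosome 17 against the distance of the gene start from that of H2-K1 in kb, coloured by role, with H2- left off the names. The tested class II genes on this chromosome lie together above 0, while H2-Q10 at 0.79 and H2-Q6 at -0.45 are close neighbours.

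The remainder of the presentation pathway was read from a list of genes outside the member rule, of which 39 were found and 34 tested. Of these 34, 19 were higher and 15 lower, with a median log2 fold change of 0.03. On the unadjusted rule 5 were called higher (14.7%) and 0 lower, against the same background of 7.95% and 8.28%. Cd40, among those called, and Marchf1 passed the FPKM limit only through the libraries labelled Sox4-MKO, and Ulbp1 only through Sox4f/f. The direction of their means was thus fixed by the limit. Leaving out 1 library left 2 called higher without Sox4f/f mouse 1, 1 without Sox4f/f mouse 2, 2 without mouse 1 labelled Sox4-MKO and 4 without mouse 2 with this label.

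Mr1, an MHC class I-like molecule that presents vitamin B metabolites to MAIT cells, was at 4.97 and 5.74 FPKM in Sox4f/f mice, compared with 9.45 and 11.1 FPKM in libraries labelled Sox4-MKO. Its log2 fold change was 0.83 ± 0.17 (SE, limma adjusted p = 0.207), a size near that of H2-Q10. Procr, the endothelial protein C receptor and a class I-like fold, was at 5.68 and 4.87 against 12.2 and 7.49 FPKM (0.76 ± 0.26, limma adjusted p = 0.275). Cd40, the co-stimulatory receptor, was at 0.694 and 0.336 against 1.95 and 1.24 FPKM (0.77 ± 0.29, limma adjusted p = 0.299).

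The lysosomal enzymes that prepare class II peptides were called in part. Ifi30, a thiol reductase, was at 13.0 and 11.4 against 16.3 and 15.9 FPKM (0.38 ± 0.14, limma adjusted p = 0.296). Ctsl, cathepsin L, was at 74.4 and 70.4 against 87.5 and 94.6 FPKM (0.33 ± 0.11, limma adjusted p = 0.285). Ctss, cathepsin S, which cleaves the invariant chain, was at 13.8 and 22.8 against 21.4 and 33.4 FPKM and overlapped (0.57 ± 0.32, limma adjusted p = 0.445).

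Marchf1, the ubiquitin ligase that removes class II from the surface, was at 1.13 and 0.523 against 2.04 and 1.65 FPKM (0.65 ± 0.28, limma adjusted p = 0.338). Among the subunits of NF-Y, a factor that binds Y boxes, Nfyb was higher and Nfya and Nfyc were lower. None of them passed the test, and the groups overlapped for none. Nfyb was at 5.53 and 5.84 against 9.92 and 6.84 FPKM (0.47 ± 0.21, limma adjusted p = 0.362). Nfya was at 9.82 and 11.9 against 6.53 and 9.07 FPKM (-0.44 ± 0.21, limma adjusted p = 0.375). Nfyc was at 19.6 and 23.1 against 16.8 and 18.1 FPKM (-0.27 ± 0.15, limma adjusted p = 0.420). The immunoproteasome subunits, which cut class I peptides, overlapped between groups, with log2 fold changes of 0.07 for Psmb8, 0.02 for Psmb9 and -0.01 for Psmb10. The values of the immunoproteasome genes were chosen for printing after they had been seen.

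The macrophage and pan-leukocyte marker sums were also higher in both libraries labelled Sox4-MKO. The summed level of 14 macrophage markers was 237 and 345 FPKM in Sox4f/f and 486 and 472 FPKM in libraries labelled Sox4-MKO, and of the 13 tested, 12 were higher and 9 were called higher (69.2%, against 7.95% of all genes tested; median log2 fold change 0.75). Among them Lyz2, macrophage lysozyme, was at 91.7 and 145 against 175 and 197 FPKM, and C1qa, a complement chain, at 34.9 and 45.5 against 77.3 and 64.7 FPKM. Fcgr1, another of those called, had means of 0.849 FPKM in Sox4f/f and 2.13 FPKM in libraries labelled Sox4-MKO. It passed the FPKM limit only through the latter. The pan-leukocyte list of 6 genes summed to 58.4 and 44.7 against 73.2 and 89.2 FPKM, with all 6 higher and 3 called higher (50.0%, against the same 7.95%). Cd52, the highest of them, was at 21.8 and 13.6 against 20.1 and 37.3 FPKM and overlapped. Ptprc (CD45), carried by nearly all leukocytes, was at 4.46 and 4.47 against 6.82 and 7.87 FPKM.

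Dendritic markers summed to 21.6 and 23.7 against 36.9 and 29.9 FPKM, with 2 of the 5 tested higher and 3 lower. Clec10a was called higher (20%, against 7.95% of all genes tested) and Zbtb46 lower (20%, against 8.28%). Clec10a, a lectin of dendritic cells and macrophages, was at 6.88 and 8.24 against 23.0 and 16.3 FPKM. Zbtb46, a transcription factor of dendritic and endothelial cells, was at 9.46 and 10.6 against 6.02 and 7.03 FPKM. Clec10a was the largest part of the dendritic sum in both libraries labelled Sox4-MKO, and Zbtb46 in both Sox4f/f libraries. Itgax, among those lower, passed the FPKM limit only through Sox4f/f (means 1.02 against 0.771 FPKM). The B cell markers were low throughout: 0 of 10 reached the FPKM limit, and their sum was between 0.679 and 3.15 FPKM in every library. T cell markers summed to 14.1 and 15.4 against 20.3 and 28.1 FPKM, with 3 of the 5 tested higher and 2 lower. Of the 5, 2 were called higher, Thy1 and Trac (40%, against 7.95% of all genes tested). Thy1 was at 4.16 and 6.46 against 10.4 and 10.8 FPKM and Trac at 2.56 and 2.79 against 5.93 and 7.07 FPKM. The groups overlapped for Cd3e, Cd3g and Lck, with log2 fold changes of 0.36, -0.05 and -0.14. The highest T cell marker was Thy1, which is not restricted to T cells. Natural killer cell markers summed to 7.41 and 3.76 against 3.55 and 9.82 FPKM, and the endothelial sum was 185 and 272 against 134 and 206 FPKM. Both sums overlapped. Of the 7 endothelial markers, 1 was higher and 6 were lower, and 1, Tie1, was called lower (14.3%, against 8.28% of all genes tested).

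The summed class II chains were at 256 and 304 FPKM in Sox4f/f and 331 and 383 FPKM in libraries labelled Sox4-MKO, a ratio of means of 1.27, where the macrophage sum had a ratio of 1.64 and the leukocyte sum 1.57. Class II chains per macrophage marker sum were 1.08 and 0.882 in Sox4f/f and 0.680 and 0.811 in the others, and per Ptprc 57.4 and 68.1 against 48.5 and 48.6. The classical class I genes per Ptprc were 240 and 205 against 194 and 150. Each of these 3 ratios was lower in both libraries labelled Sox4-MKO (exact two-sided permutation p = 0.333 each, the smallest this design allows). The groups overlapped for class II chains per leukocyte marker sum, 4.38 and 6.81 against 4.52 and 4.29, and per dendritic marker sum, 11.9 and 12.8 against 8.95 and 12.8 (exact two-sided permutation p = 0.667 each). The part of leukocyte content in the class I and class II differences was not tested.

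**Figure D4:**
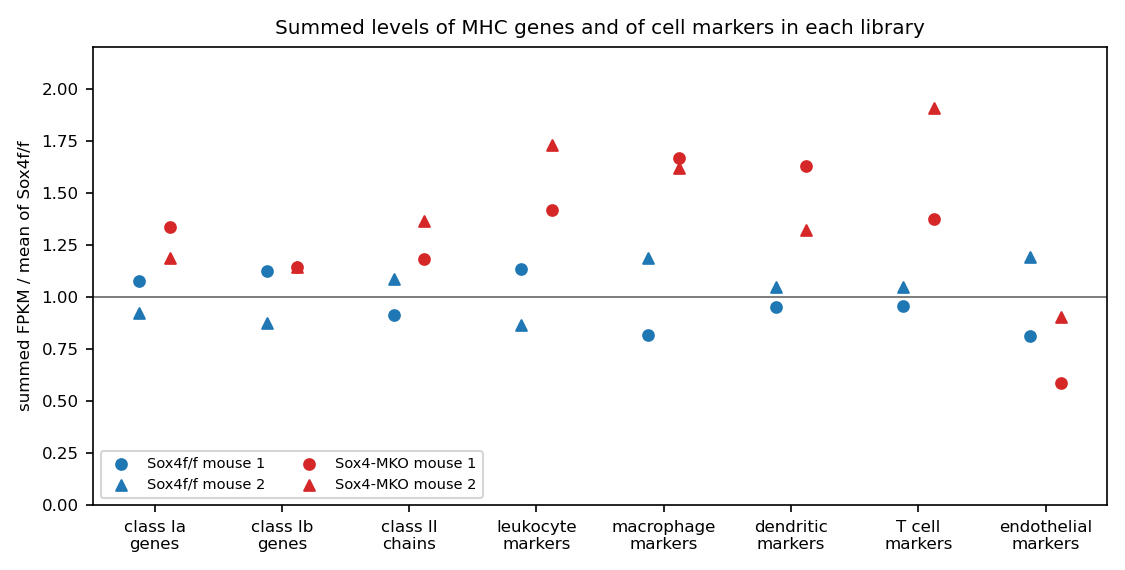
Summed FPKM of class Ia genes, class Ib genes, class II chains and the marker lists in each library, divided by the mean of the 2 Sox4f/f libraries (line at 1; 1 point per library). The red points of the class II chains are above the blue ones but below those of the macrophage list. Both red points of the class Ib sums lie just above the higher blue one, and the endothelial sums overlap.

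The called members kept their direction without mouse 1 labelled Sox4-MKO, the library with the highest muscle marker sum. Mouse 2 with this label also had a higher muscle marker sum than both Sox4f/f libraries, so this fit does not remove the muscle difference. The log2 fold changes were 0.77 for H2-Q10, 0.52 for B2m, 0.61 for H2-Aa and 0.52 for H2-DMa, and -0.34 for H2-Ke6 without it, against 0.79, 0.49, 0.47, 0.46 and -0.35 with all 4. The unadjusted limma p was then 0.0898 for B2m and 0.0543 for H2-DMa, and stayed under 0.05 for H2-Q10, H2-Aa and H2-Ke6.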

How the data were processed

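RNA sequencing of whole brown fat gave 1 table per mouse (2 Sox4f/f, 2 labelled Sox4-MKO), grouped by their labels. The values deposited by the authors are FPKM per gene; the submitters' processing notes name Cufflinks 2.1.1, Cuffdiff and mm10, and further settings are not given in the sources used here. The labels give column-based RNA isolation and a stranded mRNA kit, whereas the study's methods give TRIzol and an unstranded kit type, so it is unsettled whether strand was used. FPKM are not counts, so no count model was used. The fit was made on log2(FPKM + 1) with limma 3.58.1 (R 4.3.3, trended prior, genotype only) over the 12877 genes whose FPKM averaged more than 1 in either genotype, and p-values were adjusted by Benjamini-Hochberg over these. A log2 fold change on this scale understates the change of low genes. The call is an unadjusted p under 0.05. The study's methods give a p under 0.05 without naming the test or an adjustment. All p-values are two-sided, and with 2 mice per genotype an exact permutation test cannot go below 0.333; 13 ratios of levels were tested in this way, with none reaching 0.05. The script was tested on simulated data.

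The members, roles and marker lists were chosen with earlier results of these data known. Every member above the limit is named; of the other presentation genes, those called and the 4 with the greatest absolute log2 fold change of those not called; of the marker lists, markers with the highest levels. Ucp1, Elovl3, Cidea, Ppara, Ptprc, Fcgr1, Itgax, Trac, Cd3e, Cd3g, Lck, Nfyc and Ulbp1 were named outside this rule after their values were seen. The 13 alternatives were a replicate block, each library left out, pseudocounts of 0.1 and 0.01, no filter, a limit of 5 FPKM, quantile normalization, a common median, a common sum without mitochondrial genes and Ucp1, and a constant prior. Depth (13700000, 12200000, 13100000 and 16600000 fragments) was estimated from FPKM steps and gene length and is approximate. Genes were matched by symbol to GENCODE M21 (51 of 52) and RefSeq (52 of 52); promoter windows ran from 250 bases before to 50 after the start. Shared words are 50-base stretches of GENCODE transcripts found in another gene.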

Additional observations from a re-analysis of the deposited data

How the results depend on the processing

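With 2 mice per genotype and no adjusted p under 0.05 (limma), single calls are weakly supported. Of the called members H2-Q10 alone was called in all 13 alternatives. A fit without 1 library leaves that genotype with a single library, assumed to vary like the other group, and has fewer samples. At this depth a member such as H2-DMb2 rests on an estimated 8.25 to 21 fragments per library.

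Over 372 gene values (29 genes in 13 alternatives, fewer genes under the limit of 5 FPKM), 320 kept their direction and side of the threshold, 24 lost and 13 gained an unadjusted p under 0.05, and 15 changed sign, all in genes not called. The sign changes were: without Sox4f/f mouse 1, H2-Q4 0.13, H2-T22 0.16 and Tapbp 0.08; without Sox4f/f mouse 2, Tap1 -0.29, H2-Q7 -0.030 and H2-K2 0.17; without mouse 1 labelled Sox4-MKO, H2-T24 0.14, Tap1 -0.15 and H2-K2 0.32; without mouse 2 labelled Sox4-MKO, Tapbp 0.15 and Calr -0.13; under quantile normalization, Tapbp 0.0076 and H2-M3 -0.029; under a common sum, Tapbp 0.055 and H2-K2 0.054. Over the fits leaving out 1 library the log2 fold changes ran from -0.71 to 0.14 for H2-T24, -0.50 to 0.13 for H2-Q4, -0.46 to 0.16 for H2-T22, -0.18 to 0.15 for Tapbp, -0.29 to 0.45 for Tap1, -0.03 to 0.31 for H2-Q7, -0.13 to 0.42 for Calr and -0.34 to 0.32 for H2-K2. The cause was not tested.

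Members called higher numbered 1 to 5 over the fits that left out 1 library, and members called lower 0 to 1; for all genes the counts were 433 to 1443 higher and 380 to 1015 lower, and for the other presentation genes 1 to 4 and 0 to 1. The median of the members was then 0.14 to 0.29, that of class I 0.03 to 0.21 and of class II 0.27 to 0.47. H2-Ke6, the 1 member called lower, was no longer called with quantile normalization, a common sum or a constant prior (0 members lower in each). A common sum gave 7 members higher and a member median of 0.26, no filter a median of 0.14, quantile normalization a class I median of -0.029, and a common median 3 other presentation genes called higher. Under the common sum all genes shifted as well: 1322 were called higher, against 1024 in the fit reported, and their median was 0.01, against -0.05. Of all calls 51.0% were lower in the fit reported and 36.1% under a common sum. H2-Aa lost its call with quantile normalization, a common median and a constant prior, and B2m with no filter, a common median and a constant prior.

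The mouse numbers were not taken to pair the libraries: the deviations of same-numbered libraries from their genotype means correlated with r = -0.01 over 12877 genes, though with r = 0.53 over the 29 members tested, and nothing in the labels ties a number to a shared litter or day. With the replicate block, 0 members were called lower, B2m lost its call, and 3 other presentation genes were called higher and 1 lower.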
